A study of Mus musculus with 3 samples.

Results

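Basal keratinocytes of unwounded mouse skin were taken from the single-cell library of non-lesional dorsal skin by their raw counts of unique molecular identifiers (UMIs), the molecules counted per gene and cell barcode. A barcode was a member if it had at least 200 genes and at most 10% mitochondrial UMIs, with Krt5 and Krt14 together at least 1% of its UMIs and above Krt1 and Krt10 together. It also had fewer than 5 UMIs of Krt17 and Krt79, no Cd34 UMI, and Col1a1, Col1a2 and Col3a1 together under 1% of UMIs. These limits chose 294 of the 10857 barcodes of the library, and the series held 26881 barcodes in all. Of the 10297 non-lesional barcodes that passed the gene and mitochondrial limits, the members were 2.86% (exact Clopper-Pearson 95% interval 2.54% to 3.20%). They are described against the 811 other non-lesional barcodes in which Krt5, Krt14, Krt1 and Krt10 together reached 1% of UMIs, called here the other keratin barcodes.

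The mice were C57BL/6 males, 7 to 9 weeks old and with dorsal hair follicles at rest (telogen). A single droplet-based library was made of each tissue, which was non-lesional dorsal skin, the bed of a wound after 2 days, or the bed after 7 days. The wounds were full-thickness and measured 1.0 cm by 0.5 cm. Tissue was dissociated with collagenase D and DNase1, and the number of animals per library is not given in the labels. No genetic change or other treatment is stated for any group, and the title names the IL1 and WNT pathways as the question, in dermal cells of the adipocyte lineage. With 1 library per condition and the members chosen from the same counts, every value below is a description without a test, and intervals cover counting error only.

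The epidermis renews itself from a single basal layer that sits on the basement membrane and divides. Basal cells hold on to the membrane through hemidesmosomes, anchored inside the cell to filaments of keratins 5 and 14. Daughter cells that leave the membrane switch to keratins 1 and 10 in the spinous layers, and then build the cornified envelope in the granular layer.

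The switch between layers can be followed in Krt5 (chr15:101707070-101712898), Krt10 (chr11:99385254-99389364) and Lor, the loricrin gene of the cornified envelope (chr3:92080271-92083142), in GRCm38 coordinates. The 250 bases before the annotated start of each are shown because these 3 genes mark the basal, spinous and granular steps against which the members are read. They come from RefSeq on GRCm38.p6, minus strand, and run from chr15:101712906-101713155 for Krt5, chr11:99389365-99389614 for Krt10 and chr3:92083143-92083392 for Lor. The gene coordinates are from GENCODE, whose start of Krt5 differs slightly from that of RefSeq. Capitals mark TATAAA, the TATA box, and TGANTCA, the AP-1 motif, where a search of both strands found them.
Krt5: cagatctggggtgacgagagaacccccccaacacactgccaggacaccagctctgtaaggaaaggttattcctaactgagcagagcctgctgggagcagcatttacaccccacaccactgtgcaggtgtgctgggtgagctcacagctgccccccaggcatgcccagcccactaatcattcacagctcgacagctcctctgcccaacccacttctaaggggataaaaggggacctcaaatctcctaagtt
Krt10: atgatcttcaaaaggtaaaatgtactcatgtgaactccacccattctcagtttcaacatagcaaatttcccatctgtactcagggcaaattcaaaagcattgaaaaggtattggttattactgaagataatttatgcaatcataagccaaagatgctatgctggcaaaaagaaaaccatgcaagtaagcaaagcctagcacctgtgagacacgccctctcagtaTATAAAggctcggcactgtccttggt
Lor: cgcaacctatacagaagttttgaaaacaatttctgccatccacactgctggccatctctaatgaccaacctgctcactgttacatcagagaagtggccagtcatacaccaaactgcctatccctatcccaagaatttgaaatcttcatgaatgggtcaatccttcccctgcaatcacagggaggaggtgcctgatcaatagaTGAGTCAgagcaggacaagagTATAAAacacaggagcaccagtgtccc
TATAAA began at -26 from the start in Krt10 and at -27 in Lor, and TGANTCA began at -48 in Lor, without overlap. Of 32851 RefSeq promoters of the same length, 12.4% held TATAAA and 6.75% held TGANTCA. GCCNNNGGC, the AP-2 motif, is in 13.7% of them and was not found in these 3 windows, nor was any of the 3 motifs found in the Krt5 window. The search took exact letters, so gataaa near the end of the Krt5 window, which differs from TATAAA in its first letter, was not counted. A match is a run of letters and not a measured binding site.

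The values that chose the members are given as a description. Krt5 and Krt14 together took 1.00% of UMIs in the lowest member, a median of 2.09% and 5.83% in the highest, while the 594 barcodes set apart by Krt1 and Krt10, called the suprabasal-keratin barcodes, had a median of 0.00358%. Krt1 and Krt10 together had a median of 0.0197% and a highest value of 2.36% in members, against a median of 2.93% in suprabasal-keratin barcodes. The remaining keratin barcodes were 132 with follicle genes (Krt17 and Krt79 at 5 UMIs or more, or a Cd34 UMI), 78 with collagens at 1% or more and 7 with Krt5 and Krt14 under 1%. Groups were set by collagens first, then Krt1 and Krt10, then follicle genes, so suprabasal-keratin barcodes can also hold follicle genes. Krt17 and Krt79 together reached 4.02% of UMIs in the highest suprabasal-keratin barcode and 1.99% in the highest follicle-gene barcode, with medians of 0% and 0.0476%. For Krt17 the log2 fold of members was -4.19 over suprabasal-keratin barcodes and -3.59 over follicle-gene barcodes. The follicle-gene barcodes had a median of 1.65% for Krt5 and Krt14.

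Close to the limits the members merged into their neighbours. The lowest 2 members held 1.00039% and 1.01529% of UMIs from Krt5 and Krt14, and the nearest barcodes left out held 0.978899% and 0.960541%. Within 1% to 1.1% there were 17 members. The ratio of Krt1 and Krt10 to Krt5 and Krt14 reached 0.966 in the member nearest that limit, and was 1.05 in the nearest barcode outside it. Of the members, 159 had no UMI of Krt17 or Krt79 and 16 had 4, and 9 barcodes just outside had 5.

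**Figure D1:**
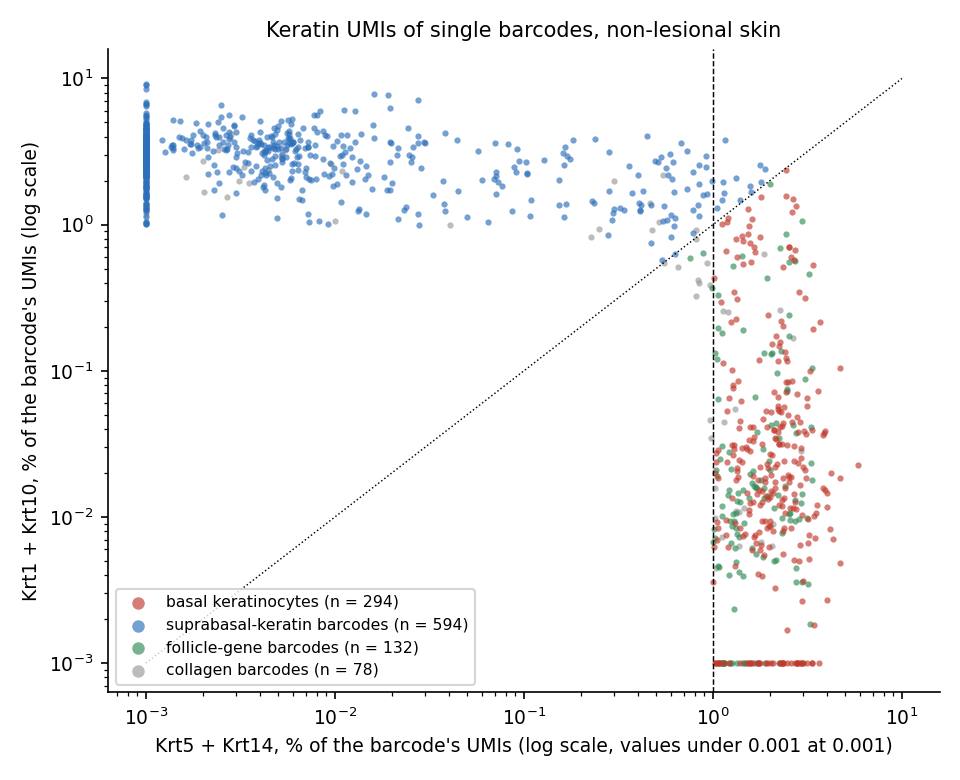
Share of UMIs from Krt5 and Krt14 (horizontal axis, percent) and from Krt1 and Krt10 (vertical axis, percent) in each barcode of 4 groups of non-lesional keratin barcodes, on log scales with values under 0.001 drawn at 0.001. The dashed line is 1% and the dotted line equal shares. The 294 members lie to the right of 1%, most with a Krt1 and Krt10 share near the median of 0.0197%, and the 594 suprabasal-keratin barcodes rise along the vertical axis around a median of 2.93%.

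Depth differed between the groups. Members held a median of 15972.5 UMIs (1397 to 148302) and 3759.5 genes (868 to 8781), and suprabasal-keratin barcodes held a median of 24228 UMIs, follicle-gene barcodes 20314.5 and the 6794 collagen-rich barcodes 9669. The collagen-rich barcodes had collagens at 1% of UMIs or more, and Krt5, Krt14, Krt1 and Krt10 together under 1%. They were not free of keratins, and Krt5 and Krt14 reached 0.977% of UMIs in the highest. The members summed to 6279792 UMIs and the other keratin barcodes to 22903798, and levels are given as CPM, the usual scaling of a gene's summed UMIs by the summed total of the group. Mitochondrial genes took a median of 1.84% of member UMIs (0.510% to 9.50%). Across the series 61 barcode sequences occurred in more than 1 library and none was a member's. Scrublet's highest doublet scores fell on 11 of 294 members (3.74%), 59 of the 78 collagen barcodes (75.6%) and 586 of the 6794 collagen-rich barcodes (8.63%). The members with high scores were kept.

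The label was checked with Krt15, a marker that the rule did not use, as a description from the same barcodes. Krt15 (chr11:100131758-100135928), another keratin of basal cells, was at 2814 CPM in members (95% Poisson interval 2772 to 2855), against 185 CPM in suprabasal-keratin barcodes and 2108 CPM in follicle-gene barcodes. Its level per member was 0 in the lowest, 2128 CPM at the median and 23202 CPM in the highest. A Krt15 UMI was present in 96.3% of members and 32.2% of suprabasal-keratin barcodes, and in 87.0% and 16.2% after each cell was thinned to 2000 UMIs. Thinning left out 1 of 294 members and 3 of 594 suprabasal-keratin barcodes. Collagen-rich barcodes were taken as a reading of the RNA free in the droplets, together with any mixtures with keratinocytes among them. In them a Krt15 UMI was present in 4.17%, or 1.48% thinned, far below the members.

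With a fold computed on CPM plus 5, 548 of 13242 genes were at least 2-fold higher in members than in the other keratin barcodes (4.14%) and 719 were at least 2-fold lower (5.43%). Scaled with TMM factors, which moved the median of all genes from 0.12 to -0.02 on the log2 scale, the split was 346 higher and 937 lower. Against suprabasal-keratin barcodes alone, 1216 of 12621 genes were higher (9.63%) and 788 lower (6.24%), or 806 and 1113 with TMM, which moved that median from 0.19 to -0.01. Against follicle-gene barcodes 8 of 11682 genes were higher (0.0685%) and 77 lower (0.659%). These last counts depend on the processing, with 71 higher and 282 lower at a pseudocount of 1 CPM, and 390 and 239 in thinned cells. Each list below is read against these shares, and the lists were chosen with results of these data known. So few of all genes passed 2-fold against follicle-gene barcodes that a list with none there does not stand out.

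Genes that fasten the cell to the basement membrane stood on the basal side. Of 16 adhesion genes, 14 were at least 2-fold higher in members than in suprabasal-keratin barcodes and none lower, with a median log2 fold of 2.17 beside 0.19 for all genes, and 11 were higher with TMM. Itga6 and Itgb4 code for the paired integrin of the hemidesmosome. Itga6 (chr2:71745616-71858416) was at 504 CPM in members (486 to 522) and 52.2 CPM in suprabasal-keratin barcodes, a ratio of 9.66 (exact conditional interval 8.96 to 10.4). Per member it was 0 in the lowest, 466 CPM at the median and 2179 CPM in the highest, so single cells overlapped with suprabasal-keratin barcodes, whose median was 30.9 CPM. Itgb4 was at 160 CPM in members and 4.39 CPM in suprabasal-keratin barcodes, a ratio of 36.5 (28.8 to 46.9).

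The other anchoring genes followed the same order. Col17a1 (chr19:47646344-47692094), the transmembrane collagen of the hemidesmosome, was at 1054 CPM in members (1028 to 1079) and 87.3 CPM in suprabasal-keratin barcodes. Its level per cell was 0, 1075 and 4136 CPM at the lowest, median and highest member, against 0, 0 and 1735 CPM in suprabasal-keratin barcodes. Dst, whose epithelial form ties keratin filaments to the plaque, was at 551 CPM in members and 83.5 CPM in suprabasal-keratin barcodes. Plec, the second plaque linker, was closer, at 331 CPM in members and 130 CPM in suprabasal-keratin barcodes, and was under 2-fold in 1 of the 17 alternatives tried.

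Integrins of focal contacts were also on the basal side. Itga3, a receptor for laminin, was at 99.2 CPM in members and 1.48 CPM in suprabasal-keratin barcodes, a ratio of 66.9 (44.9 to 104). Its partner Itgb1 was at 211 CPM in members and 12.7 CPM in suprabasal-keratin barcodes, but at 252 CPM in the collagen-rich barcodes. Bcam, a laminin-binding surface protein, was at 126 CPM in members and 8.36 CPM in suprabasal-keratin barcodes. Against follicle-gene barcodes none of the 16 adhesion genes differed by 2-fold, beside 0.0685% higher and 0.659% lower among all genes, and the list's median was -0.01.

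The membrane itself was represented by its epithelial components. Of 15 matrix genes past the minimum of 10 UMIs, 9 were higher than in suprabasal-keratin barcodes and none lower, with a median of 1.93. Lamb3, a laminin chain of the epidermal membrane, was at 139 CPM in members and 3.38 CPM in suprabasal-keratin barcodes, a ratio of 41.2 (31.5 to 54.9), and had a UMI in 82.3% of members and 3.19% of collagen-rich barcodes, or 22.9% and 0.694% thinned. Lama3, another laminin chain, was at 49.2 CPM in members and 9.19 CPM in suprabasal-keratin barcodes. Col7a1, the collagen of the fibrils below the membrane, was at 66.2 CPM in members and 4.33 CPM in suprabasal-keratin barcodes.

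Rarer matrix genes behaved alike and 1 linker did not. Npnt, a matrix ligand of integrins, was at 19.1 CPM in members and 0.534 CPM in suprabasal-keratin barcodes. Frem2, of the Fraser complex that fixes epidermis to dermis, was at 24.5 CPM in members and 0.711 CPM in suprabasal-keratin barcodes. Nid1, which links laminin to type IV collagen, was at 4.62 CPM in members, 11.7 CPM in suprabasal-keratin barcodes and 632 CPM in the collagen-rich barcodes. It was the 1 gene of the list at least 2-fold lower in members than in the other keratin barcodes, which include the collagen barcodes, and was under 2-fold in 2 alternatives.

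**Figure D2:**
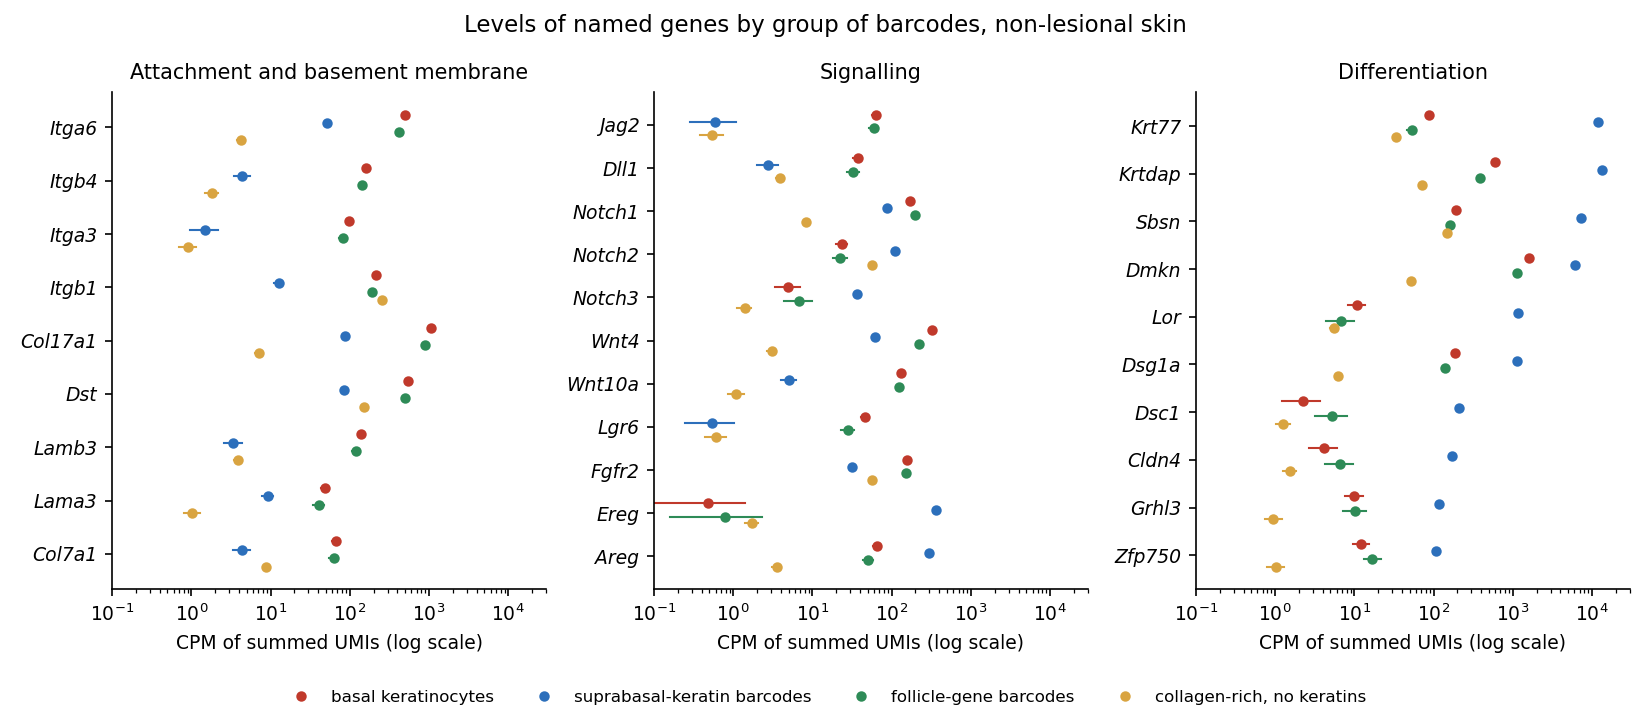
Levels of named genes (horizontal axis, CPM of summed UMIs on a log scale, bars are 95% Poisson intervals) in basal keratinocytes, suprabasal-keratin barcodes, follicle-gene barcodes and collagen-rich barcodes. Members and follicle-gene barcodes lie close together in attachment genes such as Itga6 (504 and 421 CPM), while suprabasal-keratin barcodes lie lower there and higher in differentiation genes such as Krt77 (11814 CPM, against 87.1 CPM in members).

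Notch ligands and receptors divided between the layers. Of 14 Notch genes tested, 4 were higher and 2 lower in members than in suprabasal-keratin barcodes, with a median log2 fold of 0.35. None of 14 differed by 2-fold between members and follicle-gene barcodes, near the share of all genes. The ligand Jag2 (chr12:112907819-112929776) was at 63.2 CPM in members (57.2 to 69.8) and 0.593 CPM in suprabasal-keratin barcodes, a ratio of 107 (57.4 to 224). A Jag2 UMI was present in 61.9% of members and 1.18% of suprabasal-keratin barcodes, or 12.3% and 0.338% thinned, beside 0.456% of collagen-rich barcodes. Dll1, a second ligand, was at 37.1 CPM in members and 2.73 CPM in suprabasal-keratin barcodes. Lfng, which modifies the receptors' sugars, was at 11.8 CPM in members and 0.415 CPM in suprabasal-keratin barcodes.

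The receptors went the other way or were shared. Notch2 was at 23.4 CPM in members and 109 CPM in suprabasal-keratin barcodes, which were 4.67 times higher (3.94 to 5.56). Notch3 was at 4.94 CPM in members and 36.6 CPM in suprabasal-keratin barcodes. Notch1 did not reach 2-fold, at 170 CPM in members and 87.9 CPM in suprabasal-keratin barcodes, and the ligand Jag1 was at 73.6 and 66.8 CPM in the same order. Hes1, a target of the pathway, was at 65.9 CPM in members and 27.4 CPM in suprabasal-keratin barcodes and was under 2-fold in 5 of the 17 alternatives.

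Several WNT ligands were higher in members than in suprabasal-keratin barcodes. Of 28 WNT genes tested, 10 were higher in members than in suprabasal-keratin barcodes, or 7 with TMM, and none lower, with a median of 0.80. None of 28 differed by 2-fold between members and follicle-gene barcodes, near the share of all genes, and the median there was -0.04. Wnt4 was at 320 CPM in members (306 to 334) and 61.0 CPM in suprabasal-keratin barcodes, and per member it was 0 in the lowest, 294 CPM at the median and 1089 CPM in the highest. Wnt10a was at 131 CPM in members and 5.04 CPM in suprabasal-keratin barcodes, a ratio of 26.1 (20.8 to 33.0). Wnt6 and Wnt16, at 17.8 and 21.8 CPM in members, were at 0.356 and 2.25 CPM in suprabasal-keratin barcodes, and Wnt6 was under 2-fold in thinned cells (log2 fold 0.42). Wnt3 and Wnt7b were shared between the layers, at 104 and 69.9 CPM in members and 68.9 and 49.9 CPM in suprabasal-keratin barcodes.

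Lgr6, a receptor for R-spondins known from epidermal and follicular stem cells, was at 45.7 CPM in members and 0.534 CPM in suprabasal-keratin barcodes, a ratio of 85.6 (44.5 to 189). An Lgr6 UMI was present in 45.9% of members and 1.18% of suprabasal-keratin barcodes, or 10.9% and 0.169% thinned, beside 0.412% of collagen-rich barcodes. Sfrp1, a secreted WNT antagonist, was at 39.8 CPM in members and 11.5 CPM in suprabasal-keratin barcodes. Axin2, the feedback target used to read the pathway, was at 42.2 CPM in members and 15.3 CPM in suprabasal-keratin barcodes and was under 2-fold in 3 alternatives. Lef1, a nuclear partner of beta-catenin, had 3 UMIs over all members.

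Growth factor genes split by layer. Of 20 genes of the EGF, FGF and IGF systems, 6 were higher and 3 lower in members than in suprabasal-keratin barcodes. Between members and follicle-gene barcodes none of 18 tested differed by 2-fold, near the share of all genes. Fgfr2, the receptor for dermal keratinocyte growth factors, was at 158 CPM in members and 31.7 CPM in suprabasal-keratin barcodes. Igfbp3, which binds insulin-like growth factors, was at 258 CPM in members and 23.0 CPM in suprabasal-keratin barcodes, and the collagen-rich barcodes stood at 204 CPM. Among the ligands of the EGF receptor, Areg and Ereg were lower in members. Areg was at 64.8 CPM in members and 296 CPM in suprabasal-keratin barcodes. Ereg had 3 UMIs in members, or 0.478 CPM, against 368 CPM in suprabasal-keratin barcodes, a level 770 times higher (263 to 3733).

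Other ligands and the receptor itself were shared. Hbegf was at 241 CPM in members and 340 CPM in suprabasal-keratin barcodes, and Egfr at 43.8 and 55.1 CPM in the same order. Epgn, epigen, went against Areg and Ereg, at 67.4 CPM in members and 26.3 CPM in suprabasal-keratin barcodes, and was under 2-fold in 1 alternative.

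Of 25 TGF-beta, BMP and activin genes, 10 were higher in members than in suprabasal-keratin barcodes and none lower, with a median of 0.80. Against follicle-gene barcodes, none of 23 tested was higher and 1, Fst, was lower. Tgfb1 was at 58.3 CPM in members and 3.97 CPM in suprabasal-keratin barcodes, a ratio of 14.7 (11.3 to 19.3). Bmp4 was at 63.4 CPM in members and 12.4 CPM in suprabasal-keratin barcodes. Thbs1, thrombospondin, which can activate latent TGF-beta, was at 133 CPM in members and 22.5 CPM in suprabasal-keratin barcodes. Tgfbi, a matrix protein induced by TGF-beta, was at 280 CPM in members, 36.9 CPM in suprabasal-keratin barcodes and 860 CPM in collagen-rich barcodes.

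Of 19 genes of the interleukin-1 family and alarmins, 4 were higher and 5 lower in members than in suprabasal-keratin barcodes. Between members and follicle-gene barcodes none of 17 tested differed by 2-fold, near the share of all genes. Il1a, the epidermal interleukin-1 ligand, had 37 UMIs in members, at 5.89 CPM (4.15 to 8.12), against 3.02 CPM in suprabasal-keratin barcodes, and did not reach 2-fold. An Il1a UMI was present in 9.52% of members and 6.57% of suprabasal-keratin barcodes, or 1.02% and 0.338% thinned, beside 0.0736% of collagen-rich barcodes. Il1rn, the receptor antagonist, was at 68.3 CPM in members and 113 CPM in suprabasal-keratin barcodes. The signalling receptor Il1r1 was at 24.2 CPM in members, 12.7 CPM in suprabasal-keratin barcodes and 72.5 CPM in collagen-rich barcodes, and did not reach 2-fold.

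Il1r2, the decoy receptor, was at 81.1 CPM in members and 8.36 CPM in suprabasal-keratin barcodes, and at 411 CPM in collagen-rich barcodes. Its level was uneven among the clusters of members described below. It was 388 CPM in the 7 members with Langerhans cell genes, 102 CPM in the first cluster and 6.89 CPM in the second. Over suprabasal-keratin barcodes it was under 2-fold in none of the alternatives. Il33, a nuclear alarmin, was at 80.9 CPM in members and 10.1 CPM in suprabasal-keratin barcodes, a ratio of 8.03 (6.73 to 9.61). The interleukin-36 genes were on the suprabasal side. Il1f5, the antagonist of that branch, was at 7.01 CPM in members and 153 CPM in suprabasal-keratin barcodes, and the ligand Il1f9 was at 4.78 and 33.9 CPM in the same order. Il1b was at 29.1 CPM in members, but 171 of its 183 UMIs lay in 7 members with Langerhans cell genes, described below.

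Among 25 chemokine, antimicrobial and histocompatibility genes, 7 were higher and 7 lower in members than in suprabasal-keratin barcodes. Without barcodes holding leukocyte or haemoglobin genes, 3 were higher, where 1106 of all genes compared were higher. Ccl27a, a skin chemokine that attracts T cells, was at 372 CPM in members and 53.7 CPM in suprabasal-keratin barcodes, and Cxcl14 at 126 and 34.2 CPM in the same order. Ly6a, the Sca1 antigen, was at 301 CPM in members and 56.3 CPM in suprabasal-keratin barcodes, and at 1486 CPM in collagen-rich barcodes. On the other side, the defensin Defb6 was at 5.25 CPM in members and 96.9 CPM in suprabasal-keratin barcodes, and the chemokine Ccl20 at 9.24 and 50.5 CPM in the same order, under 2-fold in thinned cells. These 2 were low against follicle-gene barcodes too. Of 21 genes tested there, none was higher and 5 were lower (Cxcl12, Cxcl1, Ccl20, Ccl2 and Defb6), beside 0.659% of all genes. The log2 folds were -3.35 for Defb6, -2.35 for Ccl20 and -1.61 for Cxcl1.

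Transcription factors of the epidermis were mixed. Of 25 tested, 5 were higher and 6 lower in members than in suprabasal-keratin barcodes, with a median of 0.04. Trp63, the p63 factor that keeps the epithelial fate, was at 285 CPM in members (272 to 299) and 102 CPM in suprabasal-keratin barcodes, a ratio of 2.79 (2.61 to 2.99). A Trp63 UMI was present in 94.9% of members and 82.0% of suprabasal-keratin barcodes, or 43.0% and 19.3% thinned, beside 4.55% of collagen-rich barcodes. Against all the other keratin barcodes it was under 2-fold in 3 of 17 alternatives, TMM among them. Tfap2b was at 63.7 CPM in members and 20.4 CPM in suprabasal-keratin barcodes, under 2-fold in 1 alternative, and Grhl2 at 40.6 and 12 CPM in the same order.

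Factors that drive terminal differentiation were lower. Grhl3, which acts late in barrier formation, was at 10.03 CPM in members and 116 CPM in suprabasal-keratin barcodes, which were 11.6 times higher (9.02 to 15.1). Zfp750, a p63 target needed for differentiation, was at 12.1 CPM in members and 109 CPM in suprabasal-keratin barcodes. Cebpa was at 44.3 CPM in members and 231 CPM in suprabasal-keratin barcodes. Klf4, a barrier factor, was at 859 CPM in members and 1745 CPM in suprabasal-keratin barcodes, and was under 2-fold in 4 alternatives. Klf5 was at 384 and 357 CPM in members and suprabasal-keratin barcodes.

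Most differentiation genes were lower. Of 18 spinous-layer genes, 15 were at least 2-fold lower in members than in suprabasal-keratin barcodes and none higher, with a median log2 fold of -4.02. Among 21 cornified envelope and granular genes, 17 were lower and none higher, with a median of -4.62. Krt77, a spinous keratin, was at 87.1 CPM in members and 11814 CPM in suprabasal-keratin barcodes, which were 136 times higher (125 to 148). Its level per member was 0 in the lowest and at the median and 1160 CPM in the highest, against 0, 6841 and 61940 CPM in suprabasal-keratin barcodes. Krtdap and Sbsn, secreted proteins of the spinous layer, were at 593 and 193 CPM in members and 13499 and 7341 CPM in suprabasal-keratin barcodes.

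Not every differentiation gene was low in level. Dmkn, dermokine, was at 1603 CPM in members and 6136 CPM in suprabasal-keratin barcodes, and had a UMI in 98.6% of members. Lgals7, galectin-7, was at 10743 CPM in members and 18483 CPM in suprabasal-keratin barcodes and did not reach 2-fold. Genes of the cornified layers were near the floor in members. Lor was at 10.8 CPM (68 UMIs) in members and 1172 CPM in suprabasal-keratin barcodes, and at 5.54 CPM in collagen-rich barcodes. Sprr1a, a cross-linked envelope precursor, was at 9.40 CPM in members, 2166 CPM in suprabasal-keratin barcodes and 24.7 CPM in collagen-rich barcodes. The members' level was below that of the collagen-rich barcodes.

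Enzymes of desquamation were rarer still. Klk7 and Klk5, proteases of the outer layer, had 9 and 8 UMIs in members, at 1.43 and 1.27 CPM, against 796 and 424 CPM in suprabasal-keratin barcodes. Cdsn, corneodesmosin, had 3 UMIs in members and was at 385 CPM in suprabasal-keratin barcodes. Flg, filaggrin, had 2 UMIs in members and was at 223 CPM in suprabasal-keratin barcodes. Crct1, Asprv1, Cnfn, Hrnr and Ly6g6c completed the 12 genes that were lowest by fold against the other keratin barcodes, with log2 folds of -6.08, -5.84, -5.56, -5.44 and -5.53.

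Desmosome genes differed by isoform. Of 12 tested, 2 were higher and 7 lower in members than in suprabasal-keratin barcodes. The desmogleins Dsg2 and Dsg3 were at 59.6 and 68.0 CPM in members, and at 2.08 and 7.11 CPM in suprabasal-keratin barcodes. Dsg1a, of the upper layers, was at 188 CPM in members and 1118 CPM in suprabasal-keratin barcodes. Dsg1a has close copies among which reads can be split, as do Stfa3 and the Sprr genes, so their values are uncertain. Dsc1, a desmocollin of the upper layers, had 14 UMIs in members at 2.23 CPM, against 208 CPM in suprabasal-keratin barcodes, which were 93.3 times higher (55.5 to 171). Dsc3 was shared, at 461 CPM in members and 737 CPM in suprabasal-keratin barcodes. The plaque protein Dsp was at 890 CPM in members and 2606 CPM in suprabasal-keratin barcodes, and the tetraspan protein Perp at 1660 and 4542 CPM in the same order.

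Adherens and tight junction genes were mostly shared, with 2 of 22 higher and 6 lower. Cdh3, P-cadherin, was at 59.9 CPM in members and 5.04 CPM in suprabasal-keratin barcodes, whereas Cdh1, E-cadherin, was at 217 and 275 CPM in the same order. Cldn4, a tight junction claudin of the granular layer, was at 4.14 CPM in members and 173 CPM in suprabasal-keratin barcodes. Cldn1 was at 188 and 282 CPM, and Epcam at 278 and 281 CPM, in members and suprabasal-keratin barcodes.

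**Figure D3:**
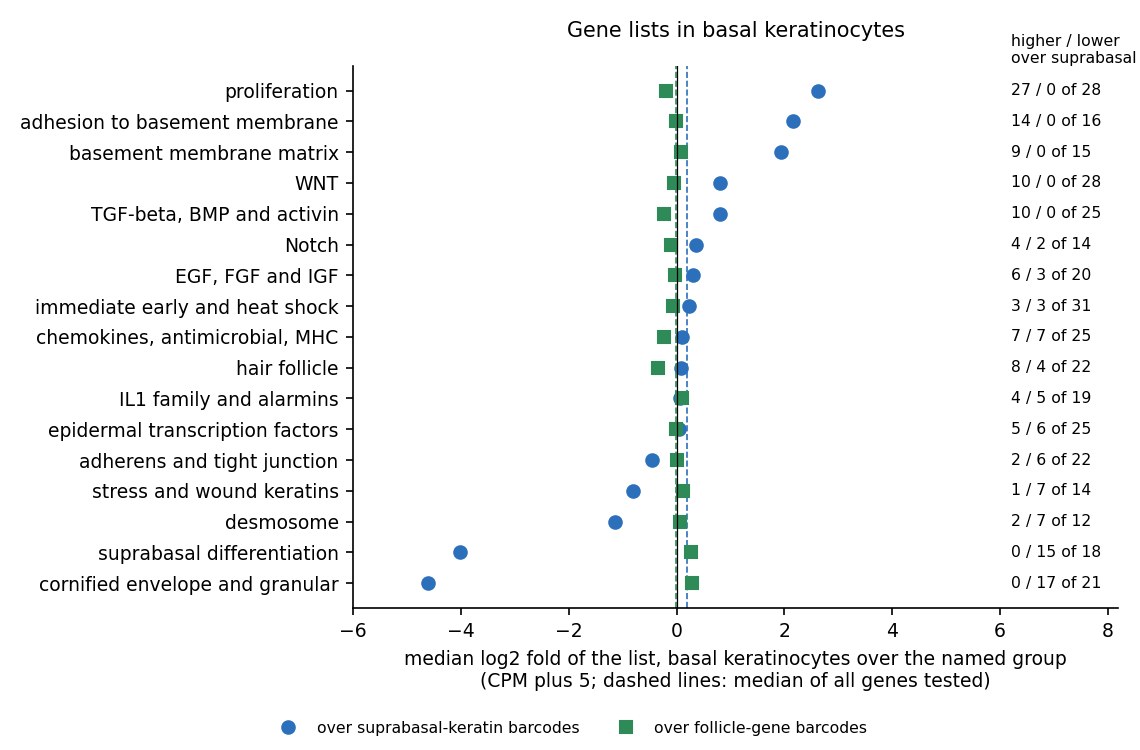
Median log2 fold (horizontal axis, CPM plus 5) of 17 gene lists, the basal keratins and the markers of other cell types not being drawn, in basal keratinocytes over suprabasal-keratin barcodes and over follicle-gene barcodes, with the medians of all genes as dashed lines. Against suprabasal-keratin barcodes the drawn lists run from 2.62 for proliferation and 2.17 for adhesion down to -4.62 for the cornified envelope, and against follicle-gene barcodes they lie between -0.35 for hair follicle genes and 0.29 for the cornified envelope.

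Cell cycle genes were higher in members as a group and sat in a fraction of them. Of 28 proliferation genes, 27 were higher than in suprabasal-keratin barcodes and none lower, with a median of 2.62. Mki67, the marker of cycling cells, was at 159 CPM in members, 5.63 CPM in suprabasal-keratin barcodes and 181 CPM in follicle-gene barcodes. A Mki67 UMI was present in 35.0% of members and 5.89% of suprabasal-keratin barcodes, or 15% and 0.677% thinned, and in 0.854% of collagen-rich barcodes. Top2a and Ube2c, of chromosome separation, were at 175 and 182 CPM in members and 11.6 and 7.41 CPM in suprabasal-keratin barcodes. Without the 51 members led by division genes, 18 of 28 were higher than in suprabasal-keratin barcodes with a median of 1.12, and Mki67 had a log2 fold of 2.11, but Top2a and Ube2c, at 0.64 and 0.65, were under 2-fold. Against the other keratin barcodes 23 of 28 were higher, but 2 were higher and 1 lower once those members were left out. Over all genes, that comparison without those members had 415 higher and 717 lower, beside 548 and 719 of 13242 with them. The counts over all genes against suprabasal-keratin barcodes were 1030 higher and 763 lower without those members.

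The D-type cyclins did not follow that fraction. Ccnd1 had a UMI in 77.6% of members and 13.3% of suprabasal-keratin barcodes, or 26.3% and 0.677% thinned, at 137 and 8.36 CPM. Ccnd2 was at 308 CPM in members and 57.2 CPM in suprabasal-keratin barcodes.

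Immediate early and heat shock genes, which tissue dissociation can induce, were high in all groups. Of 31, 3 were higher and 3 lower in members than in suprabasal-keratin barcodes, shares near those of all genes. Fos was at 3228 CPM in members, 1852 CPM in suprabasal-keratin barcodes and 2372 CPM in collagen-rich barcodes, and Jun at 2477, 1549 and 2077 CPM in the same order. Hspb1, a small heat shock protein of the upper epidermis, was at 1133 CPM in members and 5853 CPM in suprabasal-keratin barcodes. Of the wound-linked keratins, Krt6a was at 23.9 and 22.4 CPM and Krt16 at 46.5 and 240 CPM in members and suprabasal-keratin barcodes. The stefin gene Stfa3 was at 275 CPM in members and 78.7 CPM in suprabasal-keratin barcodes.

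Several of the leading genes belonged to no list. Fcgbp, which codes for a mucin-like secreted protein, was at 559 CPM in members and 19.0 CPM in suprabasal-keratin barcodes, a ratio of 29.4 (26.3 to 33.1), and had a UMI in 90.5% of members. Slc6a6, the taurine transporter, was at 258 CPM in members and 20.9 CPM in suprabasal-keratin barcodes. Cdh13, a cadherin without a transmembrane part, was at 128 CPM in members and 3.91 CPM in suprabasal-keratin barcodes. Ptn, the growth factor pleiotrophin, was at 122 CPM in members and 3.26 CPM in suprabasal-keratin barcodes, and at 203 CPM in follicle-gene barcodes. Ctnnal1, related to alpha-catenin, was at 76.3 and 2.08 CPM, and Anln, a scaffold of the dividing cell's ring, at 93.8 and 1.78 CPM, in members and suprabasal-keratin barcodes. Over the other keratin barcodes, leaving out the members led by division genes gave Anln a log2 fold of 0.19 in place of 2.08. Ptn had 0.88 in place of 1.51. Over suprabasal-keratin barcodes neither gene was under 2-fold in any alternative.

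Against follicle-gene barcodes, 8 of 11682 genes were higher and 77 lower, and these 2 counts moved most with the processing. Mt4 and Fabp5, a metallothionein and a fatty acid binding protein of differentiating cells, were the 2 that met the naming rule on the higher side. Fabp5 was at 146 CPM in members and 61.4 CPM in follicle-gene barcodes, and Mt4 at 68.8 and 28.5 CPM in the same order, and they were under 2-fold in 5 and 4 alternatives. The fourth cluster of members, described below, held Fabp5 at 614 CPM and Mt4 at 265 CPM. Without that cluster their log2 folds were 0.052 and 0.24, in place of 1.18 and 1.14. On the lower side were follicle genes that the rule did not use. Sox9, a factor of follicle stem cells, was at 45.7 CPM in members and 169 CPM in follicle-gene barcodes. Fst, the activin antagonist follistatin, was at 91.1 CPM in members and 288 CPM in follicle-gene barcodes, and Sostdc1, a BMP and WNT antagonist, at 157 and 432 CPM in the same order. With Krt17 and Krt79 under 0.1% of UMIs, Sostdc1 had a log2 fold of -0.90 and was under 2-fold. The 66 members of the second cluster, described below, held Sox9 at 187 CPM, Fst at 545 CPM and Sostdc1 at 793 CPM. In that part of the members these genes were above the follicle-gene barcodes.

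Cst6, a cystatin, was at 49.2 CPM in members and 307 CPM in follicle-gene barcodes, and Defb6 at 5.25 and 99.2 CPM in the same order. Without the highest doublet scores the log2 fold of Cst6 was -0.33 in place of -2.53. Fibroblast genes moved with this comparison: Dcn was at 34.2 CPM in members, 132 CPM in follicle-gene barcodes and 10736 CPM in collagen-rich barcodes, and Timp2 at 14, 53.3 and 2751 CPM in the same order. With the Cd34 limit not used, the log2 fold of Dcn was 0.54 in place of -1.80, and Timp2 was under 2-fold in 3 alternatives. The part of other cells' RNA in those values was not tested.

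Within the members, Leiden clustering gave 5 clusters at resolution 0.5 and 7 at resolution 1. Their leading genes defined them, so the following values describe the clusters and test nothing. The largest, with 131 members (44.6%, 38.8% to 50.4%), was led by Igfbp3, Ifi202b, Thbs1 and Gdpd2. At least 2-fold over the other members were 16 of 10919 genes (0.147%), and 294 were lower (2.69%). Igfbp3 was at 485 CPM there and 5.74 CPM to 193 CPM in the other 4 clusters. Krt15 was at 3543 CPM, Itga6 at 607 CPM and Lgr6 at 66.4 CPM, against 28.7 CPM to 34.9 CPM for Lgr6 elsewhere.

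The second cluster, of 66 members (22.4%), was led by Fst and Sostdc1, with 161 genes higher (1.47%) and 330 lower (3.02%). Fst was at 545 CPM there and 7.56 CPM to 26.8 CPM in the other clusters, and 84.8% of its members had an Fst UMI. Sox9 was at 187 CPM and Postn, a matrix protein of the follicle, at 382 CPM, and Krt17 reached 91.9 CPM under the rule's limit. These members passed the rule while holding follicle genes. Il33 was at 5.74 CPM, against 105 CPM in the first cluster, and the other clusters ranged from 57.9 CPM to 105 CPM. The second cluster's share of UMIs from Krt5 and Krt14 was lower, with a median of 1.60%, beside 2.14% in the first.

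The third cluster, of 51 members (17.3%), was led by Ube2c, Nusap1, Top2a, Cdk1 and Kif11, with 404 genes higher (3.7%) and 111 lower (1.02%). Of 28 proliferation genes, 22 were higher there. Mki67 was at 512 CPM in this cluster and 28.8 CPM in the first, and every one of its 51 members had a Mki67 UMI, or 62.7% when thinned. Its cells were deeper, at a median of 27332 UMIs against 14879 in the first cluster. Basal genes were kept, with Krt5 at 9457 CPM, Krt15 at 3031 CPM and Jag2 at 81.1 CPM.

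The fourth cluster, of 39 members (13.3%), was led by Fabp5, Elovl4, Zfp750, Mt4 and Krt77, with 94 genes higher (0.861%) and 327 lower (2.99%). Krt1 and Krt10 together had a median share of 0.674% there, against 0.0153% in the first cluster. Krtdap was at 2135 CPM in it and 83.9 CPM in the first cluster, and Notch3 at 18.2 and 2.80 CPM in the same order. Of 16 adhesion genes 1 was lower in it than in the other members, and of 15 basement membrane matrix genes 4 were. Itga3 was at 35.4 CPM in it and 139 CPM in the first cluster, Jag2 at 24.7 and 68.0 CPM and Krt15 at 1515 and 3543 CPM in the same order. These members passed the rule while holding spinous genes. None of the 39 had one of the highest doublet scores.

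The fifth cluster held 7 members (2.38%, 0.963% to 4.84%) that carried Langerhans cell genes beside keratins, with 335 genes higher (3.07%) and 556 lower (5.09%). Cd74 was at 4904 CPM, Cd207, the langerin gene, at 1431 CPM and H2-Aa at 1811 CPM, with Krt5 at 5977 CPM. These 7 held 1947 of the members' 2015 Cd74 UMIs (96.6%) and 568 of 571 Cd207 UMIs. Their median was 53369 UMIs and 4 of the 7 had one of the highest doublet scores. Cd74 ranks among the leading genes of the comparisons above, at 321 CPM in members and 9.37 CPM in suprabasal-keratin barcodes, and that level rests on them.

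Markers of other cells were mostly low. The 11 leukocyte genes summed to 594 CPM in members, 24.8 CPM in suprabasal-keratin barcodes and 628 CPM in follicle-gene barcodes, with a median of 0 per member and a highest of 22673 CPM. The members' sum includes the fifth cluster, with its 1947 UMIs of Cd74, 719 of H2-Aa and 568 of Cd207. Leukocyte or haemoglobin signs were found in 18 members, and a Ptprc UMI in 12. The 10 fibroblast genes summed to 779 CPM in members, 1152 CPM in suprabasal-keratin barcodes and 186616 CPM in collagen-rich barcodes. Of 10 melanocyte and Schwann cell genes, Mlana, Dct, Sox10 and S100b were at 0 and the list summed to 6.21 CPM. Among 10 endothelial and mural genes, Cdh5, Kdr, Lyve1 and Cldn5 were at 0, with a sum of 16.7 CPM. The Merkel cell and sebocyte list summed to 69.4 CPM in members and 201 CPM in suprabasal-keratin barcodes, with Krt20, Atoh1, Mc5r, Awat1 and Elovl3 at 0 in members. A single member held 6708 of the 6830 haemoglobin UMIs.

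**Figure D4:**
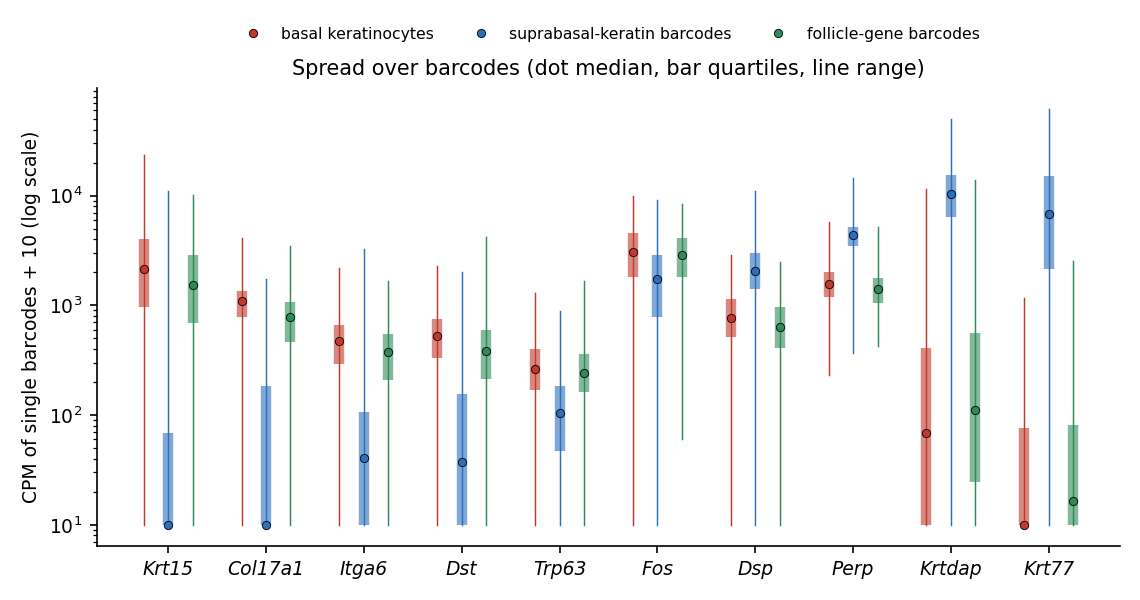
Spread over single barcodes (vertical axis, CPM plus 10 on a log scale) of 10 genes in basal keratinocytes, suprabasal-keratin barcodes and follicle-gene barcodes, with dots for medians, bars for quartiles and lines for the range. Col17a1 had a median of 1075 CPM in members and 0 in suprabasal-keratin barcodes, and single cells of the groups overlap.

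The wound libraries held almost no such cells. The same rule found 1 barcode of 7945 at day 2 (0.0126%, 0.000319% to 0.0701%) and 2 of 5142 at day 7 (0.0389%, 0.00471% to 0.140%). The gene and mitochondrial limits had left out 2175 of 7317 barcodes at day 7, 762 of 8707 at day 2 and 560 of 10857 in non-lesional skin. Over 10% mitochondrial UMIs were found in 1841, 387 and 397 of these libraries' barcodes. Keratinocytes among the barcodes left out were not counted. Keratin barcodes of any kind were 1 at day 2 and 35 at day 7, or 0.681% of those passing, beside 10.7% in non-lesional skin. So few barcodes allow no fold. The day 2 barcode held 10644 UMIs with 62 of Krt5, 55 of Krt14 and 2 of Krt15. At day 7, 1 barcode of 1540 UMIs had 14 of Krt5 and 3 of Krt14, and the other, of 4092 UMIs, had 49 of Krt14, 15 of Krt6a and 23 of Krt16.

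Over all 35 keratin barcodes of day 7, Krt16 was at 5769 CPM and Krt6a at 3331 CPM, against 160 and 22.5 CPM over the 1105 keratin barcodes of non-lesional skin. Krt15 was at 47.4 CPM (36.0 to 61.2) at day 7 and 1038 CPM in non-lesional skin. Krt14 was at 12052 CPM at day 7 and 5549 CPM in non-lesional skin, and Col17a1 at 135 and 419 CPM in the same order. The mix of groups differed between these sets, with 17 suprabasal-keratin and 13 follicle-gene barcodes at day 7. The part of that mix in the levels was not tested. Krt17, which the rule limits, was at 2383 CPM at day 7 and 566 CPM in non-lesional skin. Whether basal cells of the wound failed the rule through Krt17, and so count as follicle-gene barcodes, was not tested. Which epithelium was dissected, and how much of it survived dissociation, cannot be told apart from the condition with 1 library each.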

How the data were processed

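Non-lesional skin and wound beds at day 2 and day 7 gave 1 droplet library each, and the authors deposited unnormalised UMI counts, 1 for each gene in each barcode called as a cell. The file headers name Cell Ranger 5.0.0, whereas the submitters' processing notes name Cell Ranger 3.0.2, Seurat 3.0 and mm10. The libraries held 123088680, 138046172 and 102345327 UMIs.

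From the counts, members were chosen by the limits given in the opening and the UMIs of each group were summed to CPM. Genes with at least 10 UMIs in a pair of groups were compared by log2 fold on CPM plus 5, and a fold of 2 was the call. Intervals are exact at 95% and cover counting error only, since the barcodes of 1 library are not replicates. Levels are per UMI and not per length, so genes are not ranked against each other.

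For shares of cells, each cell was thinned to 2000 UMIs, leaving out shallower cells. Scrublet scores in scanpy 1.11.5 marked the highest 848 barcodes of 10297 (0.8% per 1000), and these were kept and left out as an alternative. Members were clustered by Leiden (leidenalg 0.10.2, resolution 0.5, seed 0) on 2000 variable genes, 20 components and 15 neighbours, with counts scaled to 10000. TMM scaling was computed with edgeR 4.0.16 (R 4.3.3), and the other steps used Python 3.11.15, numpy 2.4.6, scipy 1.17.1 and pandas 2.3.3. Steps were tested on simulated data. Gene positions are from the GENCODE annotation of GRCm38, matched by identifier for 27645 of 27998 genes, and promoters are from RefSeq.

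Genes were named by a rule: at least 50 CPM in the higher group, a UMI in 10% of its cells and a 2-fold difference, taking the largest folds of each comparison (12 against the other keratin barcodes and 8 against each subgroup, in each direction) and cluster (5), plus the highest and most different members of each list and a set of epidermal genes. Other list members were named after their values were seen. The members, the limits and the gene lists were chosen with earlier results of these data known.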

Additional observations from a re-analysis of the deposited data

How the results depend on the processing

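No paired analysis was possible because each condition had 1 library. Over 17 alternatives, 83 counts of higher or lower genes stayed within 1.5 times the main count and 19 did not. The 83 include alternatives that changed no count, which were at least 500 genes, at least 1000 UMIs and no filter on low counts. Those say little about how stable the counts are. Requiring Krt5 and Krt14 at 2% left 159 members. Higher and lower genes numbered 1182 and 1244 against the other keratin barcodes with a pseudocount of 1 CPM, and 2321 and 1222 against suprabasal-keratin barcodes. TMM scaling gave 346 and 806 higher genes in these comparisons. Against follicle-gene barcodes, higher genes numbered 33 with Krt17 and Krt79 under 0.1% of UMIs, 17 with the Cd34 limit not used, 71 with a pseudocount of 1, 13 with means over cells, 390 thinned and 5 without leukocyte or haemoglobin genes. Lower genes there numbered 42 without the highest doublet scores, 143 with 2% of Krt5 and Krt14, 141 with Krt17 and Krt79 under 0.1%, 38 with collagens under 0.2%, 282 with a pseudocount of 1, 239 thinned and 211 without the division cluster. The cause was not tested.

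Directions that turned among values at least 2-fold in the main comparison were as follows, on the log2 scale. Values under 2-fold are not listed, and some of them also turned. Against the other keratin barcodes, Fst went from 0.37 to -1.70 at its lowest and Sostdc1 from 0.61 to -0.85. Against follicle-gene barcodes, Krt77 went from 0.67 to -0.98 at its lowest. Against the other keratin barcodes, the 2% limit gave Cd207 -0.39 and Cd74 -0.068, and leaving out the division cluster gave Cdk1 -0.77, Kif11 -0.65, Nusap1 -0.98, Top2a -0.97 and Ube2c -1.32, with a median of -0.080 for the proliferation list. Against follicle-gene barcodes, not using Cd34 gave Cd34 0.42, Dcn 0.54 and Nid1 0.42, collagens under 0.2% gave Nid1 0.24, and leaving out the cluster with Krt1 and Krt10 gave Krt1 -0.20. The fibroblast marker list's median there was 0.11 with Cd34 not used and 0.0097 with collagens under 0.2%. Leaving out the cluster led by Fst and Sostdc1 gave Fst -0.18 against suprabasal-keratin barcodes. The leave-out alternatives for clusters and for leukocyte or haemoglobin genes were chosen after seeing the data. With 1 library per condition, no value here carries the spread between animals.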
